A study of Gallus gallus with 6 samples.

Results

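The comparison sets the presumptive forelimb of the chick (Gallus gallus) embryo at Hamburger-Hamilton (HH) stage 15 against flank at HH19, gene by gene. A gene entered when it reached 1 CPM (its reads scaled to a common total per library, the usual CPM) in either library, which left 11930 of the 17781 genes of the deposited table. A gene at 1 CPM or more on 1 side only could come out higher on that side alone. The counts below include such genes, whose direction the filter fixed. All libraries were polyA RNA of mesenchyme dissected directly from untreated embryos, 1 library per tissue and stage. Beside the pair, the series held forelimb HH19, hindlimb HH18, neck HH19 and a library labelled flank and neck HH19, called the combined-label library below. The labels give no strain, number of embryos or pooling. The title of the flank library carries the number 9 where its source label gives HH19, so its stage rests on that label. The presumptive forelimb was dissected at an earlier stage than the flank, so tissue and stage cannot be told apart in any difference below. With 1 library a side there is no replicate error and no test, and differences are described by their size.

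Limb fields are stretches of lateral plate mesoderm in which T-box and homeobox factors mark the future limb before it grows out. TBX5 marks the forelimb field, TBX4 and PITX1 the hindlimb field. WNT2B and FGF10 are secreted signals of forelimb initiation in the chick, and FGF10 from the mesenchyme induces the overlying ridge that then sustains outgrowth. Flank is the lateral plate between both limb levels and forms body wall. HOX genes of increasing paralogue number are switched on at increasingly posterior levels of the trunk, and those of the highest groups are used again in the growing limb bud.

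The pair held 7130877 reads counted in presumptive forelimb and 8273762 in flank, and the 4 other libraries between 7957948 and 9623046. In the pair, 3 reads, taken as the floor of detection, correspond to 0.421 CPM in presumptive forelimb and 0.363 CPM in flank. Intervals are 95% Wilson intervals and, like the floor, cover counting error only. PRRX1, a homeobox gene of lateral plate and limb mesenchyme, stood at 491 CPM in presumptive forelimb and 430.4 CPM in flank, so this mesenchymal marker was present on both sides. The combined-label library stood apart from its label in some genes. LHX2 was at 89.2 CPM in it, above both neck at 28.5 CPM and flank at 1.69 CPM. It enters below as a level and in orders over the 6 libraries, and in no count of genes of the pair.

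Blood RNA differed between both sides of the pair. The 6 annotated globin entries summed to 775 CPM in presumptive forelimb and 40269 CPM in flank, that is 0.0775% and 4.03% of the reads, and to between 44.7 and 4461 CPM in the 4 other libraries. Of the 13 blood markers listed in the table, 12 were measured, and 11 of them were at least 2-fold lower in presumptive forelimb, with a median difference of -3.37 on the log2(CPM + 1) scale. The share at least 2-fold lower over all genes of the pair was 4.91%. HBZ, an embryonic alpha-type globin, stood at 257 CPM in presumptive forelimb and 14052 CPM in flank. EPB42, a membrane skeleton protein of red cells, stood at 1.26 and 30.1 CPM, and KLF1, an erythroid transcription factor, at 0.701 and 4.96 CPM. KLF1 entered through flank alone, so it could only come out lower. In bulk tissue, fewer cells of a type and less RNA per cell cannot be told apart. The part of blood in the differences below was not tested, except that all counts were repeated without globins.

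In the other direction lay entries of structural RNAs that carry no polyA tail. Together the 267 such entries of the table summed to 3442 CPM in presumptive forelimb and 1266 CPM in flank, against 1103 to 1749 CPM in the 4 other libraries. Of the 93 that were measured, 28 were at least 2-fold higher in presumptive forelimb and 0 lower, with a median difference of 0.55. The shares over all genes of the pair were 3.52% higher and 4.91% lower. The structural entries include ribosomal 5S and 5.8S copies and spliceosomal U1 copies of near-identical sequence, so the level of a single entry is uncertain. Whether RNA selection or quality had a part in other differences was not tested.

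Of the 11930 genes, 420 (3.52%) were at least 2-fold higher in presumptive forelimb and 586 (4.91%) at least 2-fold lower, on the log2(CPM + 1) scale. The counting intervals of both levels lay apart for 396 and 570 of them. At 4-fold, 47 genes were higher and 86 lower. Among genes at 100 CPM or more in the higher library, 36 were higher and 45 lower. On the other side of the pair, 54 of the higher genes had 0 reads in flank and 29 of the lower genes had 0 reads in presumptive forelimb. The median difference over all genes was -0.003, and 5% and 95% of genes lay below -0.99 and 0.86. At the edge of the filter, ACE at 1.09 CPM in flank was inside and ACMSD at 0.982 CPM in presumptive forelimb outside. At the edge of the 2-fold limit, CHCHD10 at 1.004 and PECAM1 at -1.001 were counted, while SURF2 at 0.998 and SULF2 at -0.999 were not.

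The pair was chosen as the closest of the 6 that set a limb library against neck or flank, so its rank is descriptive. It had 8.43% of genes at least 2-fold apart. The 5 others ranged from 12.0% for presumptive forelimb against neck to 16.9% for forelimb HH19 against neck. Without the globin genes the pair stood at 8.77% and the 5 others at 12.0% to 16.9%. With TMM scaling it stood at 8.37% and the others at 10.6% to 15.1%. Leaving out the globins gave 392 higher and 661 lower genes. An unannotated entry, ENSGALG00000007458, followed the globins, at 223 CPM in presumptive forelimb and 12582 CPM in flank. Leaving it out as well gave 381 and 683.

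**Figure D1:**
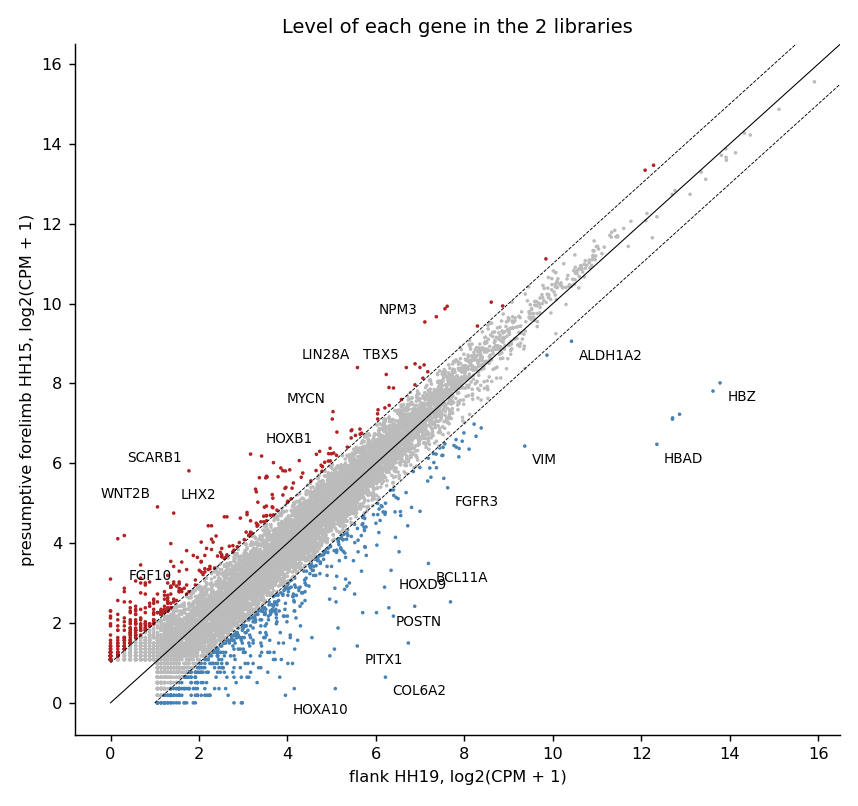
Level of each of the 11930 genes, as log2(CPM + 1), in flank HH19 (horizontal) and presumptive forelimb HH15 (vertical), with 1 point per gene. The solid line marks equal levels and the dashed lines a 2-fold difference. Red points are the 420 genes at least 2-fold higher in presumptive forelimb and blue points the 586 lower, and the globins HBZ and HBAD lie far to the right.

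Of the 9 genes on the limb field list, 7 were in the table and 5 measured. All 5 were more than 2-fold apart in the pair, 3 higher and 2 lower in presumptive forelimb. Of the 2 lower, TBX4 was below 1 CPM in presumptive forelimb and entered through flank alone, so it could only come out lower. The shares over all genes were 3.52% higher and 4.91% lower. TBX5, the transcription factor that initiates the forelimb, stood at 336 CPM in presumptive forelimb, 182 in forelimb HH19, 0.520 in hindlimb, 165 in neck, 102 in flank and 189 in the combined-label library. It was highest in presumptive forelimb, 3.30-fold above flank (1.71 on the log2 scale), and was well above the floor in flank and neck too. WNT2B stood at 29.0 CPM in presumptive forelimb with an interval of 25.3 to 33.3, at 1.09 CPM in flank with 0.572 to 2.07, and at 0.312 to 0.880 CPM in the 4 others. Presumptive forelimb was the 1 library of 6 above these low levels, with a difference of 3.85 in the pair.

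FGF10 was low in the pair, at 6.31 CPM (4.72 to 8.44) in presumptive forelimb and 1.93 CPM (1.19 to 3.14) in flank, a difference of 1.32. It stood higher in the later buds, at 13.4 CPM in forelimb HH19 and 20.4 CPM in hindlimb HH18, and at 3.19 CPM in neck and 9.86 CPM in the combined-label library. FGF8, the ridge signal, and ISL1, a LIM factor of the hindlimb field, did not reach 1 CPM in either library of the pair, at 0.280 and 0.140 CPM in presumptive forelimb and 0.363 and 0.121 CPM in flank.

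The hindlimb genes went the other way. PITX1 stood at 1.68 CPM in presumptive forelimb, 0.377 in forelimb HH19, 196 in hindlimb, 0.737 in neck, 46.8 in flank and 0.112 in the combined-label library. Flank came second to hindlimb, and the difference in the pair was -4.15. TBX4, the hindlimb T-box factor, stood at 0.841 CPM in presumptive forelimb, 4.47 in flank and 131 in hindlimb, with a difference of -1.57 in the pair, and at 0.112 to 0.251 CPM elsewhere. HOXC10 followed the same order, at 66.1 CPM in hindlimb, 3.38 in flank and 0 to 0.377 CPM in the other 4 libraries. ISL1, at 13.6 CPM in hindlimb, did not, with 0.121 CPM in flank. Whether cells of the hindlimb level were part of the flank library was not tested.

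**Figure D2:**
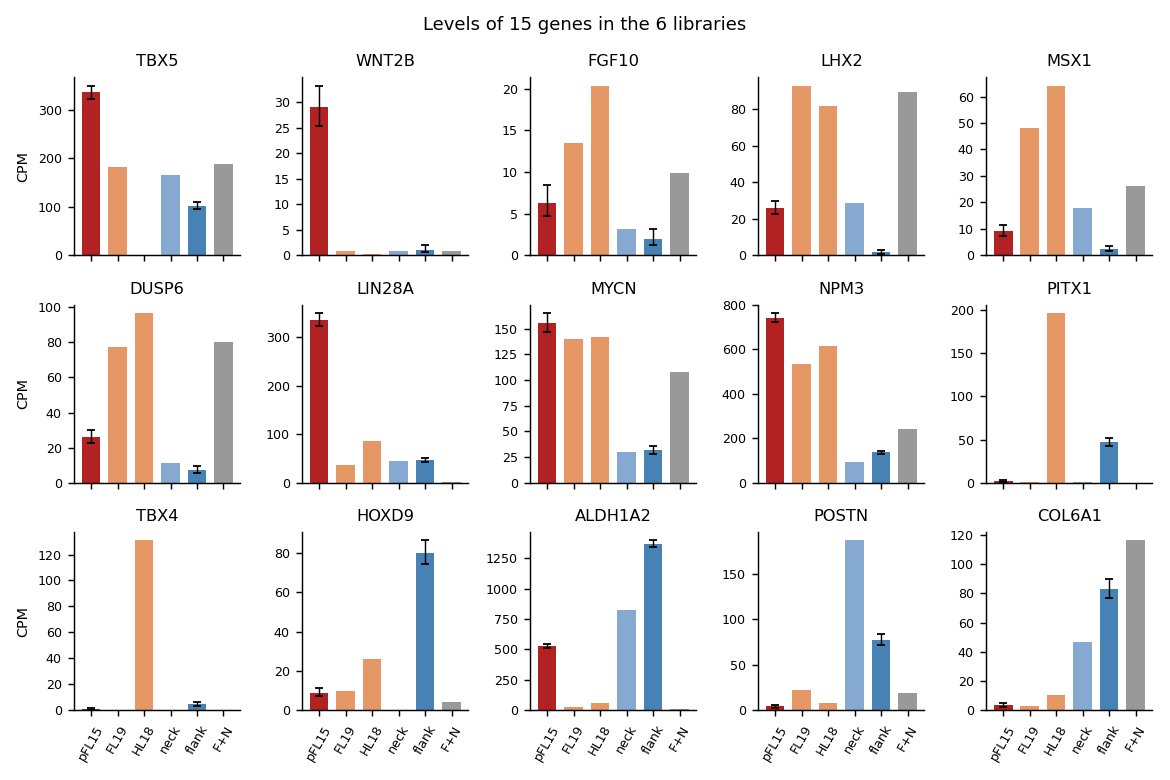
Levels of 15 genes in CPM, 1 panel per gene with its own vertical axis from 0, in presumptive forelimb HH15 (pFL15), forelimb HH19 (FL19), hindlimb HH18 (HL18), neck, flank and the combined-label library (F+N). Bars are single libraries and the error bars on the pair are 95% Wilson counting intervals. WNT2B and LIN28A stand out in presumptive forelimb, LHX2, MSX1, FGF10 and DUSP6 are higher in the later buds, and PITX1 is high in hindlimb and flank.

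Transcription factors of the limb bud were split. Of 33 listed limb bud mesenchyme genes 21 were measured, 7 at least 2-fold higher in presumptive forelimb and 5 lower, with a median difference of 0.19, which was -0.31 with a filter at 5 CPM. Over all genes of the pair, 3.52% were at least 2-fold higher and 4.91% lower. LHX2, a LIM-homeobox factor that relays ridge signals in the limb mesenchyme, stood at 25.9 CPM in presumptive forelimb and 1.69 CPM in flank, and at 92.9 and 81.8 CPM in forelimb HH19 and hindlimb HH18. Its difference of 3.32 was the largest on the list. TBX18, a T-box factor of proximal and anterior limb mesenchyme, had 3.93 CPM in presumptive forelimb and 0 reads in flank, at least 10.8-fold higher against a floor of 3 reads in flank. It entered through presumptive forelimb alone, so it could only come out higher. In the later buds it stood at 17.1 and 46.9 CPM. SALL3, a zinc finger factor, stood at 20.6 and 3.87 CPM in the pair. In the later buds it stood at 18.8 and 17.1 CPM, so that of these 3 genes LHX2 and TBX18 were lower in the presumptive forelimb than in the later buds.

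Chosen after their values were seen, MSX1, a homeobox gene of undifferentiated limb mesenchyme, stood at 9.12 and 2.30 CPM in the pair, and SALL1 at 73.8 and 24.2 CPM. Both were higher still in the later buds, MSX1 at 48.3 and 64.1 CPM and SALL1 at 178 and 174 CPM. ALX4, a homeobox factor of anterior limb and body wall, was lower in presumptive forelimb, at 14.02 against 52.7 CPM, and highest in neck at 97.7 CPM. Of the 5 genes of the list at least 2-fold lower, only ALX4 is named here, so the named genes lean to the higher side. HAND2, which sets posterior limb identity, differed little, at 262 CPM in presumptive forelimb and 311 CPM in flank.

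Among HOX genes, 2-fold differences went to higher levels in low paralogue groups and to lower levels in high ones, while the rest of both sets overlapped. Of the 13 measured genes of groups 1 to 8, 5 were at least 2-fold higher in presumptive forelimb and 0 lower, with a median difference of 0.63. Of the 15 genes of groups 9 to 13 in the table, 7 were measured, 0 higher and 5 lower, with a median of -1.94. The rest stayed below 1 CPM in both libraries. HOXA10, HOXC10 and HOXA11 were below 1 CPM in presumptive forelimb and entered through flank alone, so they could only come out lower. Over all genes of the pair, 3.52% were higher and 4.91% lower. HOXB1 was highest in presumptive forelimb of all 6 libraries, at 77.7 CPM, and stood at 25.5 CPM in flank and 40.1 CPM in neck. HOXB4 stood at 74.6 CPM in presumptive forelimb, 29.5 in flank and 86.1 in neck, and HOXD4 at 64.1, 27.7 and 79.6 CPM, so that both were highest in neck.

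At the posterior end, HOXA10 had 0.140 CPM (0.0248 to 0.794) in presumptive forelimb, 14.5 CPM (12.1 to 17.3) in flank, 13.1 CPM in forelimb HH19, 49.6 CPM in hindlimb and 0 in neck. HOXD9 stood at 8.98 CPM in presumptive forelimb, 10.1 in forelimb HH19, 25.9 in hindlimb, 0 in neck and 80.1 in flank, where it was highest. HOXB9 was likewise highest in flank, at 104 CPM against 54.8 in hindlimb, 20.6 in presumptive forelimb, 4.78 in forelimb HH19 and 0.491 in neck. The remaining HOX genes were named after their values were seen. HOXA9 stood at 22.7 CPM in presumptive forelimb and 67.3 CPM in flank, a difference of -1.53. HOXA6, at 107 and 50.2 CPM, was the highest paralogue group at least 2-fold higher in presumptive forelimb. The 8 measured genes of groups 1 to 8 that were not 2-fold apart lay between -0.51 and 0.82, and HOXD10 and HOXA11 at 0.21 and -0.42.

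The list of limb progenitor reprogramming factors held 5 genes, PRDM16, ZBTB16, LIN28A, LIN28B and TRIM71. All 5 were higher in presumptive forelimb and 3 at least 2-fold, with a median difference of 1.63. This list was chosen with earlier results of these data known, so its direction is no independent evidence. Over all genes of the pair, 3.52% were at least 2-fold higher. LIN28A, an RNA-binding protein that blocks maturation of let-7 microRNAs, stood at 336 CPM in presumptive forelimb, 35.8 in forelimb HH19, 85.2 in hindlimb, 45.0 in neck, 46.9 in flank and 1.12 in the combined-label library. Its paralogue LIN28B stood at 246 CPM in presumptive forelimb and 141 CPM in flank, and TRIM71, a let-7 target, at 131 and 78.1 CPM. LIN28A was thus highest in presumptive forelimb, 7.16-fold above flank, and the later forelimb bud stood below flank.

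PRDM16, a zinc finger and histone methyltransferase family factor, stood at 13.6 CPM in presumptive forelimb, 124 in forelimb HH19, 123 in hindlimb, 50.1 in neck and 3.51 in flank. ZBTB16, a zinc finger repressor of early limb patterning, stood at 25.2, 107, 124, 27.3 and 7.49 CPM in the same order. Both were lowest in flank, and presumptive forelimb stood below neck for each of them. Of 11 measured genes of early progenitors and the let-7 pathway 2 were at least 2-fold higher, LIN28A and MYCN, and 0 lower, with a median of 0.43. The shares over all genes were 3.52% higher and 4.91% lower. MYCN, a growth-promoting MYC-family factor, stood at 156 CPM (147 to 165) in presumptive forelimb and 31.7 CPM (28.1 to 35.7) in flank, a difference of 2.26.

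Signalling genes were counted by pathway, beside the 3.52% higher and 4.91% lower over all genes. Of 14 measured FGF genes 3 were at least 2-fold higher in presumptive forelimb and 1 lower, with a median of 0.36. DUSP6, a phosphatase induced by FGF signalling through ERK, stood at 26.2 CPM in presumptive forelimb and 7.49 in flank, while forelimb HH19 and hindlimb HH18 reached 77.2 and 96.6 CPM. FGF9, a mesothelial and epithelial ligand, stood at 1.402 CPM against 0 reads in flank, at least 3.87-fold higher against the 3-read floor. It entered through presumptive forelimb alone, so it could only come out higher. FGFR3, a receptor associated with cartilage, went the other way, at 40.8 CPM in presumptive forelimb, 196 in flank, 51.4 in neck and 9.55 and 4.36 in the later buds.

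Of 22 measured Wnt genes 3 were higher and 2 lower, with a median of 0.04 (-0.0035 without globins). Beside WNT2B, the secreted Wnt inhibitor WIF1 stood at 56.1 CPM in presumptive forelimb and 15.6 CPM in flank, and RSPO2, a potentiator of Wnt signalling needed for limbs, at 8.83 and 1.93 CPM. SFRP1, another secreted Wnt binder, was lower in presumptive forelimb, at 37.4 against 102 CPM.

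Of 12 measured retinoic acid genes 0 were at least 2-fold higher in presumptive forelimb and 5 lower, with a median of -0.66. ALDH1A2, the enzyme that makes retinoic acid in trunk mesoderm, stood at 531 CPM in presumptive forelimb, 25.8 in forelimb HH19, 62.1 in hindlimb, 824 in neck, 1369.6 in flank and 12.996 in the combined-label library. The presumptive forelimb thus lay between flank and the later buds. DHRS3, a retinaldehyde reductase induced by retinoic acid, stood at 15.1 and 45.0 CPM in the pair, and the receptors RXRG and RXRA at 18.9 against 52.5 and 8.41 against 21.8 CPM.

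Of 18 measured BMP and TGF-beta genes 1 was higher and 4 lower, with a median of -0.35. BMP5 stood at 21.6 CPM in presumptive forelimb against 8.82 in flank, while BMP7 at 12.5 against 38.3, TGFB2 at 8.41 against 25.6 and LTBP1, which stores latent TGF-beta in the matrix, at 81.8 against 235 CPM were lower. None of 9 measured Hedgehog genes was 2-fold apart, with a median of -0.37. Of 17 measured Notch and ephrin genes 1 was higher and 2 lower. HEY2, a Notch target repressor, stood at 14.9 CPM in presumptive forelimb, 1.57 in flank and 15.2 in neck, and the ephrin receptors EPHA3 and EPHA5 at 15.8 against 47.4 and 3.79 against 10.2 CPM. Of 17 axon guidance genes 2 were higher and 0 lower, the secreted repellents SEMA3A at 115 against 48.8 CPM and SLIT1 at 12.1 against 5.20 CPM.

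**Figure D3:**
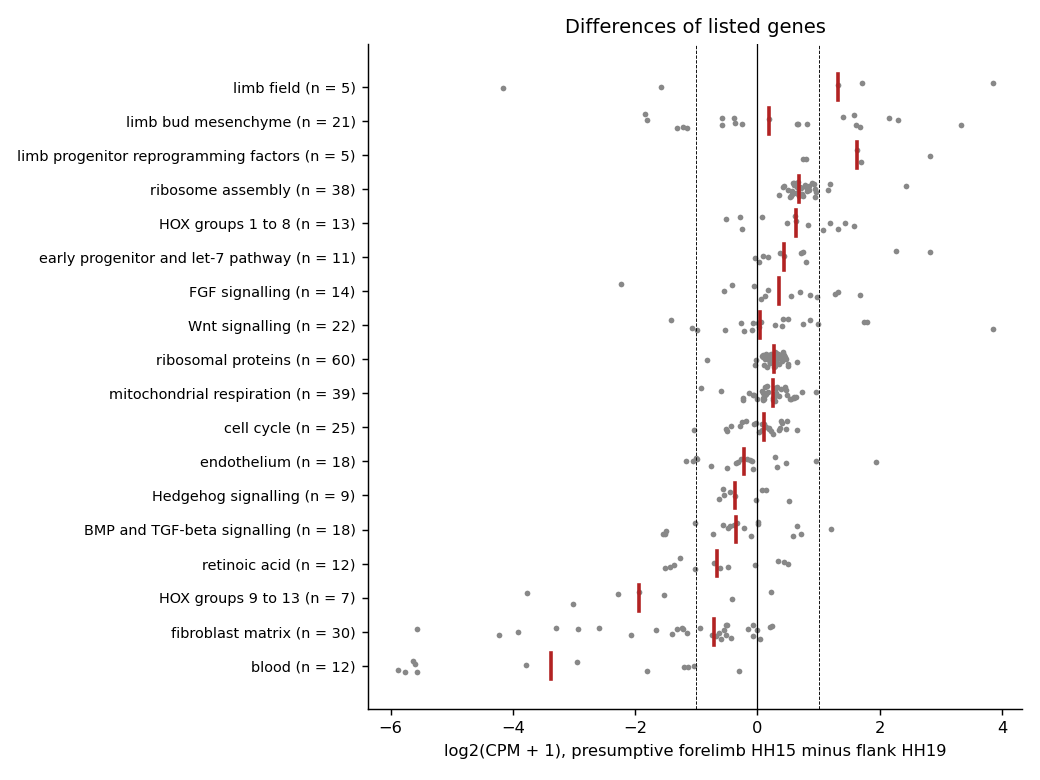
Difference of each measured gene of 18 lists between presumptive forelimb HH15 and flank HH19, in log2(CPM + 1). Grey points are genes, the red bar is the median of the list and dashed lines mark 2-fold. Of the lists drawn, blood genes, fibroblast matrix genes and HOX groups 9 to 13 have the lowest medians, at -3.37, -0.71 and -1.94, and the reprogramming factors and limb field genes the highest, at 1.63 and 1.32.

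Of 30 measured fibroblast matrix genes 13 were at least 2-fold lower in presumptive forelimb and 0 higher, with a median of -0.71. The other 17 were less than 2-fold apart, and 3 of them stood above flank. Over all genes of the pair, 4.91% were at least 2-fold lower and 3.52% higher. COL6A2 and COL6A1, chains of microfibrillar collagen VI, stood at 0.561 and 3.51 CPM in presumptive forelimb against 73.2 and 83.2 CPM in flank, and at 1.01 to 10.2 CPM in the later buds. COL6A2 entered through flank alone, so it could only come out lower. POSTN (periostin), a matricellular protein of fibroblasts, stood at 4.21 CPM in presumptive forelimb, 21.7 in forelimb HH19, 7.90 in hindlimb, 186 in neck and 77.4 in flank. SVEP1, a large adhesion protein of the matrix, stood at 6.45 and 72.3 CPM in the pair and at 143 CPM in neck. For all 4, neck and flank stood above each of the 3 limb libraries. VIM, the intermediate filament of mesenchymal cells, was lower in presumptive forelimb as well, at 85.3 CPM against 658 in flank and 157 to 363 CPM in the later buds and neck.

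The next lists were counted beside the same shares over all genes, 3.52% higher and 4.91% lower. Of 9 measured cartilage genes 2 were lower and 0 higher, COL9A1, a collagen of cartilage fibrils, at 2.10 against 22.5 CPM and SOX6, a chondrogenic factor, at 16.0 against 37.2 CPM. Of 16 basement membrane, integrin and hyaluronan genes 3 were lower and 0 higher. HAS2, a hyaluronan synthase, stood at 24.8 against 93.4 CPM, and the integrin chains ITGA8 and ITGAV at 4.77 against 16.8 and 10.2 against 25.7 CPM. None of 17 cell junction genes was 2-fold apart, with a median of 0.05. Of 14 measured lateral plate and coelomic lining genes 4 were higher and 5 lower. Beside LHX2 and TBX18, OSR1, an early lateral and intermediate mesoderm factor, stood at 4.77 CPM in presumptive forelimb and 1.09 CPM in flank, and TCF21, a coelomic mesenchyme factor, at 0.421 and 2.90 CPM. TBX18 entered through presumptive forelimb alone and TCF21 through flank alone, so the filter fixed the direction of both.

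Genes of ribosome assembly stood higher in the presumptive forelimb, mostly by less than 2-fold. All 38 measured did so, from 0.35 to 2.43, of which 3 passed 2-fold, and the median was 0.69 against 0.21 over the 1593 genes at 100 CPM or more. The share at least 2-fold higher over all genes was 3.52%. NPM3, a nucleolar histone chaperone, stood at 743 CPM in presumptive forelimb and 137 CPM in flank. EMG1 and RRP12, both needed to mature the small ribosomal subunit, stood at 166 against 72.6 and 103 against 45.4 CPM. Of 60 ribosomal protein genes 57 stood higher, 0 by 2-fold, and RPS27A was lowest at -0.82. Their median of 0.27 lay close to the 0.21 of genes at 100 CPM or more, so it does not set them apart. For 39 mitochondrial respiration genes the median was 0.25, also close to 0.21, and for 25 cell cycle genes 0.11. In the first, 0 were 2-fold apart, and CYCS (cytochrome c) was highest at 0.95. In the second, CDKN1B, an inhibitor of cycling, was the 1 gene past 2-fold, at 13.04 against 27.9 CPM, and CDK1 stood at 670.0 against 429 CPM.

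Of 19 measured glycolysis and hypoxia genes 3 were higher and 2 lower. Over all genes of the pair, 3.52% were higher and 4.91% lower. LDHB, a lactate dehydrogenase chain, stood at 2221 CPM in presumptive forelimb and 917 CPM in flank, while LDHA, the other chain, stood at 12.5 and 27.7 CPM. HK2, a hexokinase, stood at 83.7 against 39.9 CPM, and ADM, a hypoxia-inducible peptide, at 0.140 against 3.63 CPM. ADM entered through flank alone, so it could only come out lower. Of 15 stress and immediate early genes 3 were higher and 2 lower. The heat-inducible ZFAND2A and HSPH1 stood at 28.9 against 10.2 and 98.3 against 42.4 CPM, and the immediate early factors EGR1 and JUN at 0.701 against 5.801 and 26.4 against 73.0 CPM. EGR1 likewise entered through flank alone.

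Several of the largest differences lay outside these groups. SCARB1, a receptor for high-density lipoprotein, had the largest difference of any named gene higher in presumptive forelimb, at 4.04. It stood at 55.1 CPM (49.9 to 60.8) in presumptive forelimb, 1.51 in forelimb HH19, 2.29 in hindlimb, 1.84 in neck, 2.42 (1.56 to 3.73) in flank and 7.06 in the combined-label library. Presumptive forelimb was thus the highest of the 6 libraries. UPK3A, a membrane protein of urothelium, had 3.93 CPM in presumptive forelimb and 0 reads in each of the other 5 libraries, at least 10.8-fold above the floor of flank. SOX8, an SRY-box factor, stood at 5.89 against 0.242 CPM, PAMR1, a secreted protease-like protein, at 7.29 against 0.483 CPM and GFRA1, a GDNF co-receptor, at 7.01 against 0.604 CPM. SOX8 and GFRA1 were higher in forelimb HH19 than in presumptive forelimb, at 23.2 and 14.1 CPM, whereas PAMR1 was highest in neck at 9.46 CPM. Among abundant genes, PRTG (protogenin), a receptor of early mesoderm and neural tube, stood at 237 against 77.5 CPM, ASB9 at 137 against 31.3 CPM and SCD, a fatty acid desaturase, at 109 against 33.7 CPM.

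In the other direction BCL11A, a zinc finger repressor known from globin switching and neurons, stood at 10.2 CPM in presumptive forelimb, 145 in flank and 116 in neck. The globins of neck summed to 2200.2 CPM, beside 40269 CPM in flank, and whether BCL11A came with blood was not tested. CA13, a carbonic anhydrase, stood at 4.35 against 117 CPM, CSTA, a cysteine protease inhibitor, at 0.280 against 32.9 CPM and LOC421644 at 3.79 against 63.6 CPM. All 3 were highest in flank of the 6 libraries, as the globins were, and whether they came with blood was not tested.

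Markers of other cell types were counted beside the same shares over all genes, 3.52% higher and 4.91% lower, and 1 gene in a short list does not stand apart from them. Of 18 measured endothelial genes 1 was higher in presumptive forelimb, GJA4, an arterial connexin, at 5.61 against 0.725 CPM, and 3 were lower, FLI1, ENG and PECAM1, at 6.31, 6.73 and 7.29 CPM against 15.5, 14.99 and 15.6 CPM. GJA4 entered through presumptive forelimb alone, so it could only come out higher. The endothelial list summed to 214 CPM in presumptive forelimb, 262 in flank and 328 to 669.7 CPM in the 4 others. Of 10 neural genes with an entry, 7 were measured, 3 at least 2-fold lower and 0 higher. The microtubule protein DCX stood at 13.9 against 53.2 CPM and the neurofilament NEFL at 1.96 against 11.1 CPM. STMN2, at 0 reads against 1.21 CPM, entered through flank alone, so it could only come out lower. The neural median was -0.94, and 0.16 with no filter but 1 read in either library. The direction of this list thus depends on the filter. Among 8 measured neural crest genes and 5 measured somite and muscle genes 0 were 2-fold apart, with FOXD3 and MYF5, which define those types, at 0 reads in both libraries.

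Of 9 measured ectoderm genes 1 was higher, KRT14 at 5.05 against 1.33 CPM, and the list summed to 293 and 249.9 CPM. Intermediate mesoderm genes were split, with 2 of 5 higher (GFRA1, OSR1) and 2 lower, RET at 1.402 against 4.59 and EMX2 at 0.841 against 3.02 CPM. GFRA1 entered through presumptive forelimb alone and EMX2 through flank alone, so the filter fixed the direction of both. Of 3 endoderm genes 1 was lower, APOA1 at 7.01 against 41.2 CPM, with 566 CPM in neck, and the gut and posterior factor CDX2 stood at 12.3 against 5.92 CPM. Of 3 heart genes 1 was higher, GATA4 at 2.66 against 0.725 CPM, and the list summed to 6.87 and 5.32 CPM. GATA4 entered through presumptive forelimb alone, so it could only come out higher. Of 5 pharyngeal and cranial genes 1 was higher and 2 lower.

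The genes of the pair were then followed in libraries of neither side. Forelimb HH19 against neck HH19 and hindlimb HH18 against neck HH19 share no library with the pair, though they share neck with each other. Of the 420 higher genes 303 were measured in forelimb HH19 against neck, and 28.1% of them were at least 2-fold higher there and 12.9% lower. Over all genes of the pair measured there, 3.12% were higher and 13% lower, and the median of that contrast was -0.26. In hindlimb HH18 against neck, with 313 measured, 22.7% were higher and 17.6% lower, beside 2.35% and 11.8% over all genes. Centred on the median of each contrast, 38.6% and 30.7% were higher, beside 6.13% and 3.82% over all genes.

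Of the 586 lower genes 519 were measured in forelimb HH19 against neck, with 53.9% lower and 2.89% higher. In hindlimb HH18 against neck, 50.1% of 525 were lower and 4.76% higher. After centring, 44.7% and 42.7% were lower, beside 7.89% and 8.28% over all genes. The shares that went the same way as in the pair lay above those of all genes in both directions. In hindlimb HH18 against neck the opposite shares did too. There 17.6% of the higher genes were lower, beside 11.8%, and 4.76% of the lower genes were higher, beside 2.35%. In forelimb HH19 against neck the opposite shares did not, at 12.9% beside 13% and 2.89% beside 3.12%. After centring, only the share going the same way was counted. These contrasts do not repeat the tissues of the pair, since neck stands in for flank and a later bud for the presumptive forelimb.

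Of the higher genes, 48 of 420 (11.4%) were at least 2-fold higher than neck in both later buds, and of the lower genes 223 of 586 (38.1%) lower. Over all genes of the pair, 1.37% were higher and 7.87% lower than neck in both. The former included the limb genes FGF10, LHX2, MSX1, SALL1, TBX18, PRDM16 and ZBTB16, the growth genes MYCN, NPM3 and EMG1, and DUSP6 and ZFAND2A. WNT2B, LIN28A, SCARB1 and HOXB1 were not among them, at 0.02, -0.32, -0.18 and -1.17 in forelimb HH19 against neck. The latter included COL6A1, COL6A2, POSTN, SVEP1, BCL11A, FGFR3, ALDH1A2, HAS2, JUN and ALX4. PITX1, HOXA10, HOXD9 and HOXB9 were not among them, at 6.83, 5.66, 4.75 and 5.22 higher in hindlimb HH18 than in neck.

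**Figure D4:**
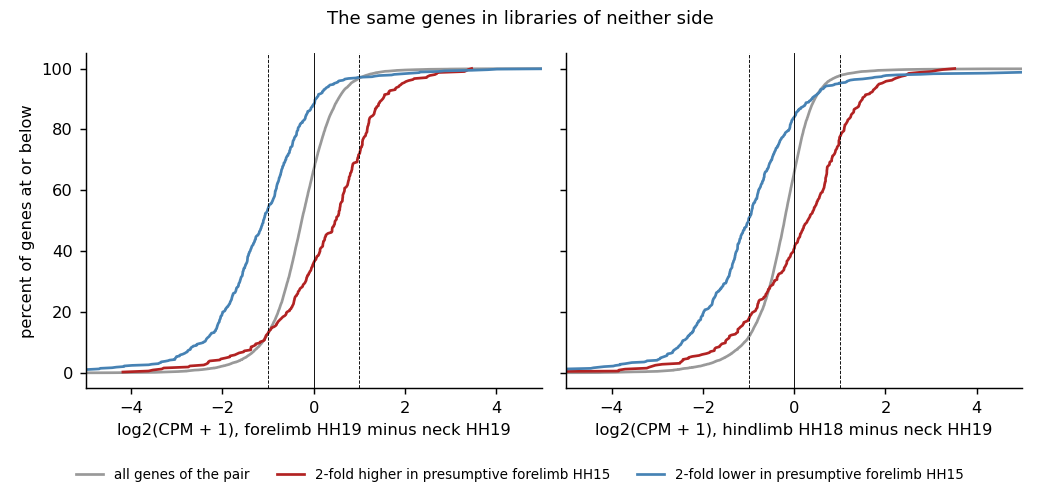
Cumulative percent of genes by their difference, in log2(CPM + 1), in forelimb HH19 minus neck (left) and hindlimb HH18 minus neck (right). Grey is all genes of the pair, red the genes at least 2-fold higher and blue those at least 2-fold lower in presumptive forelimb HH15 than in flank. The red curve lies to the right of grey over most of its range and the blue curve to the left, with medians of 0.48, -0.26 and -1.10 for red, grey and blue on the left.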

How the data were processed

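PolyA RNA of 6 chick mesenchyme libraries was sequenced, 1 library per group. The authors deposited 1 table of 17781 genes with counts of reads per gene. The CPM values deposited by the authors are these counts scaled to 1 common total per library, the reads counted to the table, and were recomputed. TopHat 1.4.0 and galGal4 appear in the submitters' processing notes with no role given. The read counter and annotation are not given in the sources used here. For the combined-label library the column was taken from its initials and stage, and 0 per-sample columns were left unmapped.

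Differences are log2(CPM + 1), presumptive forelimb HH15 minus flank HH19, over genes at 1 CPM or more in either library. The members and the 34 gene lists (834 genes, 583 in the table) were chosen with earlier results of these data known. Named genes are those with a name and the 15 largest differences each way, the 10 largest each way at 100 CPM or more, every limb field gene and reprogramming factor, and 4 or fewer for each other list. Others are said to be named after their values were seen, or mark a list or a threshold. Of entries sharing a name, that with the highest mean was used. The table names 10291 genes by symbol. UniProt entries were named by RefSeq protein accession (1226), by an equal RefSeq symbol (801) or by description (175), and 5288 had no gene name. A name in the form of a spreadsheet date was left unnamed. No coordinates or sequences were used. Some genes chosen by this rule are not reported here.

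Intervals are 95% Wilson intervals and the floor is 3 reads per library. Alternatives were pseudocounts, filters, fold thresholds, other scalings (TMM by edgeR 4.0.16, size factors by DESeq2 1.42.0), globins left out and other libraries in place of 1 side. Leaving out structural RNAs, and the entry that follows the globins, was chosen after seeing the data. Software was R 4.3.3 and Python 3.11.15 with matplotlib 3.10.9, scipy 1.17.1, pandas 2.3.3 and numpy 2.4.6.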

Additional observations from a re-analysis of the deposited data

How the results depend on the processing

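With 1 library a side, no replicate could be left out. No paired analysis was possible because each group holds 1 library. Leaving out globins, the gene with the most reads or structural RNAs, TMM factors, DESeq2 size factors and centring kept all 4 counts within 1.5 times of the reported ones and turned the sign of no named gene. Leaving out globins turned 3 of 34 list medians, all within 0.1 of 0 (Wnt signalling, cell junction and heart muscle), and moved 2 by more than 0.1, and leaving out the gene with the most reads moved 3. TMM, DESeq2 factors, centring and structural RNAs left out moved 0. Depth limits low genes, and list medians depend on the filter and the pseudocount. With no filter 16 of 34 moved by more than 0.1 and 5 turned sign, and at 5 CPM 15 of 33 moved and 5 turned sign. Not all of these medians lay near 0. With no filter the neural median went from -0.94 to 0.16 and the endoderm median from -0.98 to 0.19. At 5 CPM the intermediate mesoderm median went from -0.82 to 2.32. A pseudocount of 5 moved 12 medians, and 27 of 117 named genes beyond their counting interval, and 0.1 moved 10 and 18, with 0 turned. A pseudocount of 0.1 gave 714 genes higher and 941 lower, and 13.9% of genes 2-fold apart. A pseudocount of 5 gave 115 and 208, also with intervals apart, and 2.71%. A filter at 5 CPM gave 204 higher genes, also with intervals apart, and left 1 of 34 lists with no gene. At 1.5-fold 1329 genes were higher and 1568 lower, 986 and 1126 with intervals apart, which is 24.3% of genes. At 4-fold 47 and 86 were, also with intervals apart, which is 1.11%. Of these, 10.8% of the higher and 31.5% of the lower genes were also at least 4-fold apart the same way in forelimb HH19 against neck. The 4-fold limit applied to both contrasts there and its share over all genes was not counted, so these shares do not compare with those at 2-fold.

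Other libraries in place of 1 side made another comparison, and the cause of each change was not tested. The library labelled flank and neck in place of flank gave 1104 genes higher and 1318 lower, 1099 and 1277 with intervals apart, and 19.9% apart. Neck in place of flank gave 1071 lower, 1045 with intervals apart. Forelimb HH19 in place of presumptive forelimb gave 1151 lower, 1145 with intervals apart, and 13.9% apart.

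Named differences and list medians that were at least 2-fold in the pair and changed sign are given as log2(CPM + 1). Smaller ones that changed sign are not listed. With the library labelled flank and neck they were FGF10 at -0.57, LHX2 at -1.74, TBX18 at -4.65, MSX1 at -1.42, SALL1 at -0.83, PRDM16 at -3.62, ZBTB16 at -1.34, DUSP6 at -1.57, SOX8 at -2.88, GFRA1 at -1.79, SCD at -1.26, HK2 at -0.0703 and SLIT1 at -0.62. Reversed upward there were PITX1 at 1.27, ALX4 at 0.66, FGFR3 at 2.85, SFRP1 at 0.0220, ALDH1A2 at 5.25, DHRS3 at 2.47, RXRG at 1.17, TGFB2 at 0.18, HOXB9 at 2.95, HOXD9 at 0.96, SVEP1 at 0.22, CA13 at 1.88, EPB42 at 1.02, LOC421644 at 0.96, DCX at 0.60, APOA1 at 2.26, RET at 0.43, EPHA3 at 1.91, EPHA5 at 0.90, COL9A1 at 0.40, SOX6 at 3.002, HAS2 at 1.68, HBAD at 3.50, HBZ at 4.02, HBBA at 3.96, HBE at 4.31, HBAA at 3.92 and the blood median at 3.50.

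With neck in place of flank they were LHX2 at -0.13, TBX18 at -0.81, MSX1 at -0.90, PRDM16 at -1.81, ZBTB16 at -0.11, FGF9 at -0.11, HOXB4 at -0.20, HOXD4 at -0.31, HEY2 at -0.0332, PAMR1 at -0.34, KRT14 at -0.0264, GATA4 at -2.48, SLIT1 at -0.32, PITX1 at 0.63, RXRG at 1.07, HOXA9 at 4.40, HOXB9 at 3.86, HOXD9 at 3.32, EPHA3 at 0.44, EPHA5 at 0.58 and the median of HOX groups 9 to 13 at 3.84. With forelimb HH19 in place of presumptive forelimb they were WNT2B at -0.15, LIN28A at -0.38, BMP5 at -1.71, HOXB1 at -0.54, SCARB1 at -0.45, PRTG at -0.64, KRT14 at -0.63, OSR1 at -0.15, SEMA3A at -1.08, HOXA9 at 0.16, EGR1 at 0.73, FLI1 at 0.63, EMX2 at 0.93, the limb field median at -0.15 and the median of HOX groups 9 to 13 at 0.78.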

Other observations

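Some genes of the grown limb bud stood higher in the combined-label library than in either tissue of its name, and not all did. They were named after their values were seen. HOXD12, a HOX gene of the distal limb, stood at 237 CPM in it, 55.7 CPM in forelimb HH19 and 159 CPM in hindlimb HH18, whereas neck had 0.369 and flank 0.483 CPM. HOXA11, a HOX gene of the middle limb segment, stood at 81.3, 25.5 and 121 CPM in the same 3 libraries, whereas neck had 0.369 and flank 1.09 CPM. Presumptive forelimb HH15 had 0.561 CPM of each. The cause was not tested.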
